A study of Homo sapiens with 6 samples.

Results

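Respiratory complex I is the NADH dehydrogenase of the mitochondrial inner membrane. The genes described here are 36 of its nuclear-encoded subunits, taken by symbol, and all 36 had a row among the 17104 genes of the table. RNA-seq was run on HBMEC cells, a brain-derived cell line whose labelled cell type is endothelial. OGD/R is a model of ischaemia in culture in which oxygen and glucose are withdrawn and then given back. There were 3 OGD/R libraries and 3 control (CON) libraries from normal culture. The lengths of deprivation and reperfusion are not given in the sources used here. Neither is it stated that replicates are separate cultures, so p-values reflect only how these samples vary, and that variation may be technical.

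Complex I takes electrons from NADH through a flavin and a chain of iron-sulfur clusters to ubiquinone, and pumps protons out of the matrix as it does so. The matrix arm carries the electron path. The membrane arm, whose central subunits are encoded in mitochondrial DNA, carries the proton pumps. Around this catalytic core sit accessory subunits, many of them small proteins, which stabilise the complex and help it assemble.

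The label was checked against marker genes. Of 13 endothelial markers, 4 had a value (CDH5, EGFL7, ESAM and ROBO4), while PECAM1, VWF, CLDN5, TEK, KDR, FLT1, TIE1, ERG and EMCN had none. Of 10 epithelial markers, 8 had a value, and KRT19 and GRHL2 had none. CDH1 (0.835 to 1.28 CPM) and ESRP2 (0.196 to 0.583 CPM) were low in all 6 libraries. The summed level of the epithelial markers was 2999 to 3059 CPM (counts scaled to library size) in OGD/R libraries, against 2445 to 2670 CPM in CON libraries. That of the endothelial markers was 203 to 210 CPM in OGD/R libraries, against 198 to 215 CPM in CON libraries. Within that sum CDH5 rose (log2 fold change 0.81, edgeR adjusted p = 2.71e-07) and ROBO4 fell (−0.75, edgeR adjusted p = 0.00107). These markers do not bear out the endothelial label, so the cells are called by their line name. The summed epithelial level was carried by the keratins KRT8, KRT18 and KRT7, which rose (log2 fold changes of 0.33, 0.18 and 0.17), while CDH1, CLDN4 and ESRP1 had values of −0.28, −0.25 and −0.18 and did not pass. The median of the epithelial list overlapped, at 47.0 to 47.9 CPM in OGD/R libraries and 45.5 to 49.9 CPM in CON libraries. That of the endothelial markers with a value did not, at 34.2 to 37.7 CPM in OGD/R libraries and 29.2 to 33.0 CPM in CON libraries. The summed epithelial level and the endothelial median moved with the groups, and their part in the results on complex I was not tested. Total counts were 31048662 to 34484647 in OGD/R libraries, against 32107917 to 33607821 in CON libraries.

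After OGD/R, transcripts of many complex I subunits were slightly more abundant. Of the 36 subunits, 18 (50%) rose, 0 fell and 18 did not pass the test (edgeR quasi-likelihood test, adjusted over all genes, threshold 0.05). Over all genes tested, 10.2% rose and 9.48% fell. At an unadjusted p under 0.05, 21 subunits were higher and 0 lower, and DESeq2 and limma-voom each called 18 higher and 0 lower. The share that rose was 14.9% among the 10859 protein-coding genes with an average log2 CPM above 2. The median log2 fold change of the subunits, OGD/R over CON, was 0.22, and that of all genes was −0.00. The fold changes of the subunits lay between −0.24 and 0.48 on the log2 scale, with 30 positive and 6 negative. In 19 subunits every OGD/R library lay above every CON library, a pattern that 16.4% of all genes showed. In cultures measured as bulk RNA, a different number of cells of a kind and a different amount of RNA per cell cannot be told apart.

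The 36 genes together took 0.154%, 0.158% and 0.157% of the counts in OGD/R replicates 1 to 3, and 0.133%, 0.145% and 0.139% in CON replicates 1 to 3. The 2 groups did not overlap in this share. Within the complex, OGD/R replicate 1 was the least raised of its group, with 28 of 36 subunits above their mean over the 6 libraries, against 31 in each of OGD/R replicates 2 and 3. CON replicate 2 was the CON library nearest to the OGD/R group, with 15 of 36 subunits above that mean, against 5 in each of CON replicates 1 and 3.

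**Figure D1:**
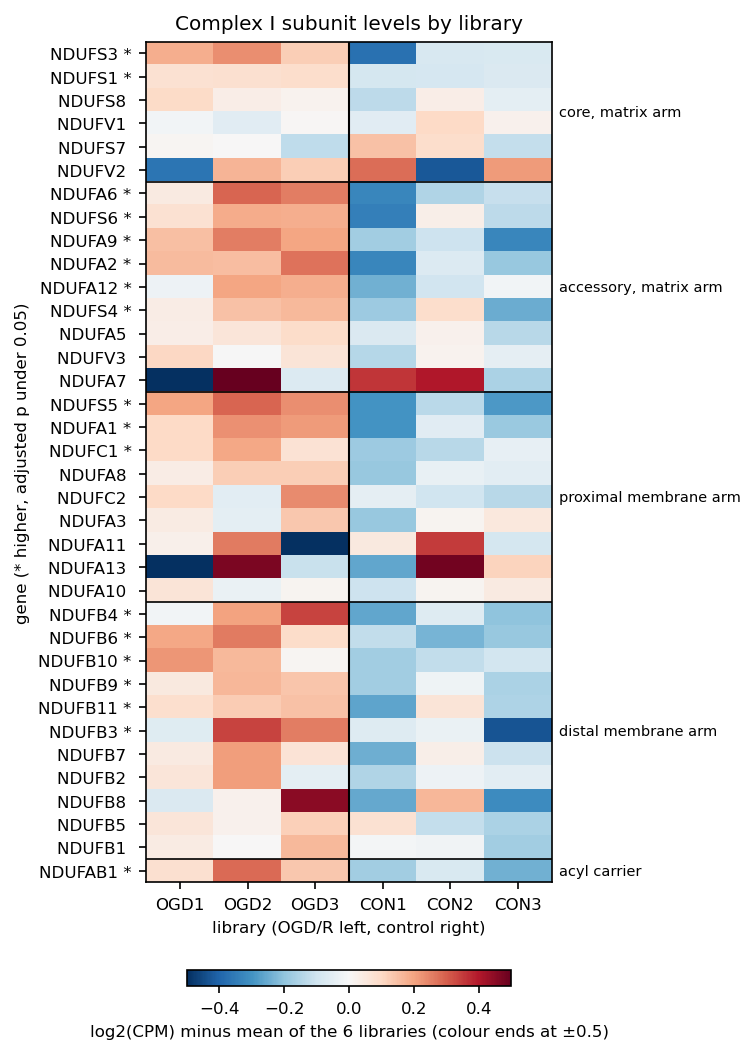
Level of each of the 36 subunits in each library, as log2 CPM minus its mean over the 6 libraries, with OGD/R libraries left of CON libraries and genes grouped by structural place. Red marks values above the mean and blue values below it, and an asterisk marks the 18 subunits that rose. Most rows are red on the left and blue on the right. Mixed rows include those of NDUFV1, NDUFS7, NDUFV2, NDUFA7, NDUFA3, NDUFA11, NDUFA13 and NDUFA10.

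Subunits of short transcripts made up most of the list, and short genes as a whole were higher after OGD/R. By the longest annotated transcript, 23 of 36 subunits fell in the shortest of 10 equal length classes of the 10859 genes, and by the principal transcript, which the annotation marks as the main protein-coding form, 28 did. In that class, all genes had a median log2 fold change of 0.13 and 34.1% rose by the longest transcript, and 0.14 and 36.8% by the principal one. Of the subunits there, 14 of 23 and 16 of 28 rose, with median log2 fold changes of 0.24 and 0.23. Set against the median of its own length class, the log2 fold change of a subunit was larger in 29 of 36 by the longest transcript and in 26 of 36 by the principal one, with a median excess of 0.13 and 0.10.

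When a smooth trend on transcript length and GC content was removed from each library, 8 of 36 subunits (22.2%) rose and 0 fell, with a median log2 fold change of 0.11, while 10.3% of all genes rose and 8.92% fell. The trend was fitted on the longest transcript. On the principal transcript, a variant chosen after seeing the data, 9 of 36 (25%) rose and 0 fell, with a median of 0.08, while 10.5% of all genes rose and 8.47% fell. Among the 10859 protein-coding genes the shares that rose were 15.5% and 15.4%. NDUFS3, NDUFS1, NDUFA6, NDUFA9, NDUFS5 and NDUFB11 rose under both corrections and also under the other 16 alternatives that were run. NDUFS6, NDUFA1 and NDUFB6 rose with the principal-transcript correction and not with the other, while NDUFB4 and NDUFB9 did the reverse.

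**Figure D2:**
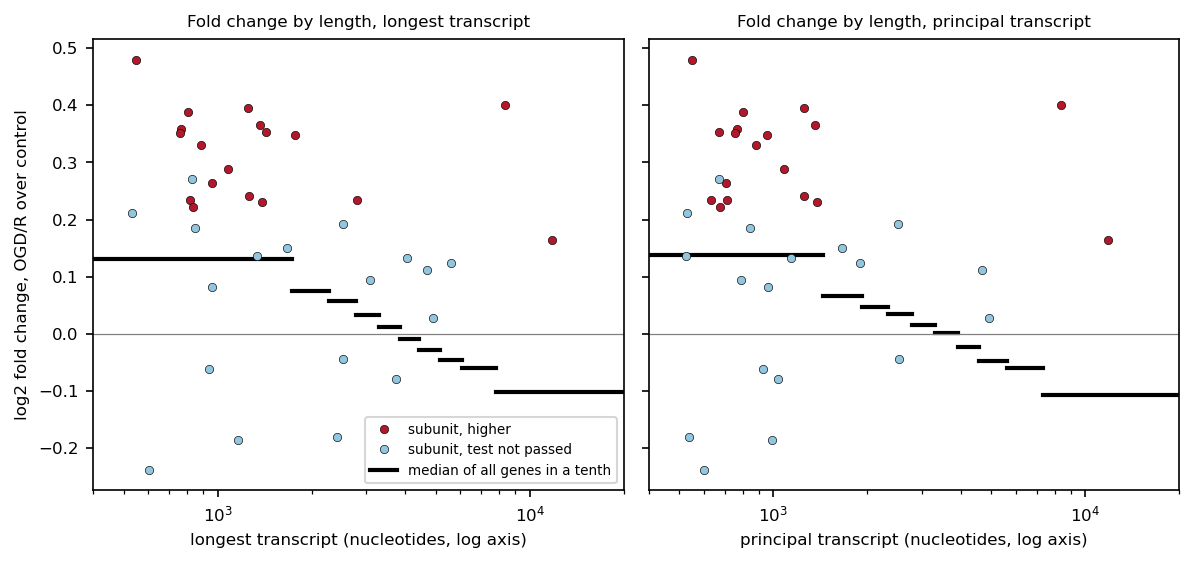
Log2 fold change of each subunit, OGD/R over CON, against the length of its longest (left) and principal (right) transcript on a log axis. Black bars give the median of all genes in each of 10 length classes, which is 0.13 or 0.14 in the shortest class and −0.10 or −0.11 in the longest. The 2 subunits of long annotated transcript that rose, NDUFA9 and NDUFS1, stand well above their bars. Their place rests on annotated length, and which form the reads came from was not tested.

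The trend moved with the groups library by library. The median log2 deviation of the subunits from their mean over the 6 libraries was 0.05, 0.17 and 0.12 in OGD/R replicates 1 to 3, and −0.17, −0.03 and −0.12 in CON replicates 1 to 3. The length and GC trend at these genes had medians of 0.03, 0.09 and 0.08 in OGD/R replicates 1 to 3, and −0.11, −0.00 and −0.08 in CON replicates 1 to 3. What remained after its removal had medians of 0.03, 0.08 and 0.05 in OGD/R replicates 1 to 3, and −0.08, −0.00 and −0.07 in CON replicates 1 to 3. The order of the libraries was the same with and without the trend, and all OGD/R medians stayed above all CON medians. What sets the trend was not tested.

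**Figure D3:**
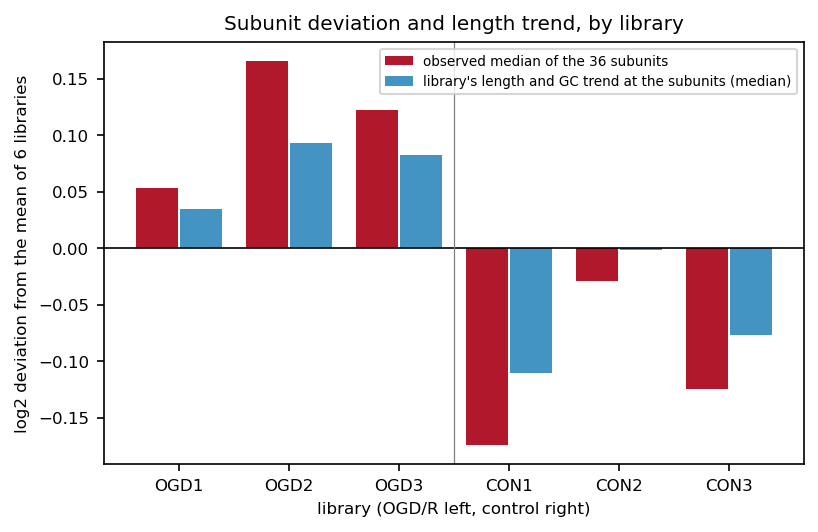
Median log2 deviation of the 36 subunits from their mean over the 6 libraries (red) beside the median of each library's length and GC trend at the same genes (blue), with OGD/R libraries left of CON libraries. Observed medians run from 0.05 to 0.17 in OGD/R libraries and from −0.17 to −0.03 in CON libraries, and the trend has the same sign in each library.

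Promoters are shown for subunits that moved together and for 1 that did not. RefSeq windows of 300 bases, from 250 bases before the transcription start to 50 after it, were held for 32 of the 36 subunits, on build GRCh38.p14. NDUFS3, NDUFA6 and NDUFAB1 have the smallest p among the subunits with a window. NDUFA9, a gene of long annotated transcript that rose, and NDUFV1, which did not pass, were picked after their values were seen. Capitals mark matches, on either strand, to letters of sites for NRF1 (as in the capitals upstream of the start in NDUFA9), the ETS factor GABP (CCGGAAG) and YY1 (AANATGGCG), factors known for respiratory chain promoters. Each sequence is given in the direction of transcription, at chr11:47578824-47579123 (plus strand), chr22:42090723-42091022 (minus), chr16:23596267-23596566 (minus), chr12:4648864-4649163 (plus) and chr11:67606686-67606985 (plus).
NDUFS3: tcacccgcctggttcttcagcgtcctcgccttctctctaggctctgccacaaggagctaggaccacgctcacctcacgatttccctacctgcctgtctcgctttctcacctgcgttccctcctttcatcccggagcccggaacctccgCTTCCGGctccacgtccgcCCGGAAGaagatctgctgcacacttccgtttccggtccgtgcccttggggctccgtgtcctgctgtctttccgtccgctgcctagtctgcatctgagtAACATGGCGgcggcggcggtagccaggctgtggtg
NDUFA6: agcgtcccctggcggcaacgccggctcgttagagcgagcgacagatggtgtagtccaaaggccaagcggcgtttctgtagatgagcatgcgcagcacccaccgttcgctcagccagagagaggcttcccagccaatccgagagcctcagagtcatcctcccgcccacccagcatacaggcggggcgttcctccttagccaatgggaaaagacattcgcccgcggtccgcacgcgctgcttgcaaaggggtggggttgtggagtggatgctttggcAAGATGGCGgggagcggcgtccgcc
NDUFAB1: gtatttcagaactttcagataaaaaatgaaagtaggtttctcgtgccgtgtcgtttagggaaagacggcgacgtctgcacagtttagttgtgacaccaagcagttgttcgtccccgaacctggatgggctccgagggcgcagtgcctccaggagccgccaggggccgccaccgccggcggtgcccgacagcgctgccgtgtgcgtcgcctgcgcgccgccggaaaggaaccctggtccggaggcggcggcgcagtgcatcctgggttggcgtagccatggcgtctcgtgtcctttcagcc
NDUFA9: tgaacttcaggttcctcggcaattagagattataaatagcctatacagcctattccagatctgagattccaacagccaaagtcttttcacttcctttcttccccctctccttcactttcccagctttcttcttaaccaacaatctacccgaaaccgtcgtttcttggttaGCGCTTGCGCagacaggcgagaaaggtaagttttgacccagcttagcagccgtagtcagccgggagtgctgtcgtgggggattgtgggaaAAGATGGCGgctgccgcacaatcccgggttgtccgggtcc
NDUFV1: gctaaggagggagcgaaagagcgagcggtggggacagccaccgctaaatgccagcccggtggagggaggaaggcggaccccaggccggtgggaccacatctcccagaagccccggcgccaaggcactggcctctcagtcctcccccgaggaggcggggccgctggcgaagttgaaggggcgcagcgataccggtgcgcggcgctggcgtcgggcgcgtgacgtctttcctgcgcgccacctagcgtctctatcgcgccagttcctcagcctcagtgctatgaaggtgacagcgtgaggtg
The NDUFS3 window holds the ETS letters on both strands and the YY1 letters once. That of NDUFA6 holds the YY1 letters, that of NDUFA9 the NRF1 and YY1 letters, and those of NDUFAB1 and NDUFV1 none of the 3.

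The YY1 letters were held by 11 of 32 subunit windows (34.4%), against 3.85% of the windows of all 27305 genes in the RefSeq table. In 8 of those 11 the ATG inside the match is an annotated translation start in GENCODE 29, which was so in 324 of the 1050 genes with a match. In these 8 the match also spells the first codons of the protein, as in NDUFS3, NDUFA6 and NDUFA9. The NRF1 letters were held by 6 of 32 subunits (18.8%), against 6.98% of all genes, and the ETS letters by 5 of 32 (15.6%), against 12.2%. The letters TGACCTT of a site for ESRRA were held by 4 (12.5%), against 4.80%, and the E-box CACGTG by 3 (9.38%), against 8.77%. A variant of the YY1 letters that partly overlaps them, CAAGATGGC, was held by 3 (9.38%), against 1.72%. All 6 motifs were picked after seeing the data. The windows divide evenly between 16 subunits that rose and 16 that did not pass. The YY1 letters were in 6 that rose and 5 others, the NRF1 letters in 3 and 3, the ETS letters in 3 and 2, the ESRRA letters in 2 and 2, the E-box in 0 and 3 and the YY1 variant in 2 and 1. A match is a string of letters and does not show binding.

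Core subunits of the matrix arm carry the electron path. Of 6, 2 rose and 4 did not pass, with a median log2 fold change of 0.03. As counted, 10.2% of all genes rose. With the longest-transcript and principal-transcript corrections 2 and 2 of the 6 rose, where 10.3% and 10.5% of all genes rose. NDUFS3 (ENSG00000213619), a core subunit near the quinone site, had 90.9, 94.2 and 87.3 CPM in OGD/R libraries, against 61.9, 75.8 and 76.1 CPM in CON libraries. The groups did not overlap, and CON replicate 1 was the lowest library (log2 fold change 0.35 ± 0.06 SE, edgeR adjusted p = 2.47e-05). NDUFS1 (ENSG00000023228), the large core subunit that holds several of the iron-sulfur clusters, had 108.6, 108.7 and 109.4 CPM in OGD/R libraries, against 96.7, 97.0 and 98.0 CPM in CON libraries. Its rise was small but wider than the spread within either group (0.16 ± 0.05 SE, edgeR adjusted p = 0.00914). Its longest transcript has 11819 bases, and in the class of longest genes the median log2 fold change was −0.10 and 3.78% of genes rose. With the length and GC correction its log2 fold change was 0.27 (edgeR adjusted p = 1.99e-06). This value rests on the annotated length, and which transcript form the reads came from was not tested. Per kilobase of principal transcript, NDUFS1 had 9.21 CPM in OGD/R libraries and 8.22 CPM in CON libraries.

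The other core subunits did not pass. NDUFV1, which binds the flavin and NADH, had 136 ± 3.03 CPM in OGD/R libraries and 140 ± 7.72 CPM in CON libraries (SD, n = 3 each, log2 fold change −0.04 ± 0.05 SE). NDUFS8, an iron-sulfur subunit, had a log2 fold change of 0.10 ± 0.05 SE, and NDUFS7, which holds the last cluster before ubiquinone, one of −0.08 ± 0.11 SE. NDUFV2 (ENSG00000178127), partner of NDUFV1 at the entry of electrons, had the largest p of the core. Its levels were 1.49, 2.16 and 2.09 CPM in OGD/R libraries, against 2.33, 1.43 and 2.22 CPM in CON libraries. The groups overlapped (−0.06 ± 0.27 SE, edgeR adjusted p = 0.917), and it rested on 51 to 70 counts per OGD/R library and 48 to 76 counts per CON library.

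Accessory subunits of the matrix arm gave 6 that rose and 3 that did not pass of 9, with a median log2 fold change of 0.23. The share that rose was 10.2% over all genes, and 34.1% in the shortest length class by the longest transcript. With the longest-transcript and principal-transcript corrections 2 and 3 of the 9 rose, where 10.3% and 10.5% of all genes rose. NDUFA6 (ENSG00000184983), a LYR-motif protein that docks the acyl carrier protein on the complex, had 39.0, 46.3 and 45.2 CPM in OGD/R libraries, against 30.2, 34.1 and 35.0 CPM in CON libraries. All OGD/R libraries were above all CON libraries (0.39 ± 0.07 SE, edgeR adjusted p = 4.99e-05). NDUFS6 (ENSG00000145494), a zinc-binding subunit, had 54.6, 59.0 and 58.8 CPM in OGD/R libraries, against 40.8, 52.8 and 47.4 CPM in CON libraries. The groups did not overlap, with CON replicate 2 the closest to the OGD/R libraries (0.29 ± 0.07 SE, edgeR adjusted p = 0.00158). With the longest-transcript correction its adjusted p was 0.0569.

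NDUFA9, a subunit of the short-chain dehydrogenase fold that binds NADPH, was 16.3 ± 0.585 CPM in OGD/R libraries and 12.4 ± 0.963 CPM in CON libraries (SD, n = 3 each). Its log2 fold change of 0.40 ± 0.10 SE (edgeR adjusted p = 0.00339) was 0.48 with the length and GC correction. Its longest transcript has 8363 bases. Per kilobase of principal transcript, NDUFA9 had 1.95 CPM in OGD/R libraries and 1.48 CPM in CON libraries. The corrected value rests on the annotated length, and which form the reads came from was not tested. NDUFA2, with a thioredoxin-like fold, rose by 0.39 ± 0.10 SE, NDUFA12 by 0.23 ± 0.08 SE and NDUFS4, a subunit often mutated in Leigh syndrome, by 0.22 ± 0.08 SE on the log2 scale. These 3 did not pass under either correction, where the log2 values of NDUFA12 and NDUFS4 lay between −0.02 and 0.03. The call of NDUFA12 was also lost without CON replicate 1 or without OGD/R replicate 2 or 3 (edgeR adjusted p = 0.118 to 0.147). That of NDUFS4 was lost without CON replicate 1 or 3 or without OGD/R replicate 2 or 3 (edgeR adjusted p = 0.135 to 0.261). It was lost as well with total-count scaling (edgeR adjusted p = 0.0721) and with DESeq2 (adjusted p = 0.0545). NDUFA5 (0.12 ± 0.05 SE) and NDUFV3 (0.11 ± 0.07 SE) did not pass as counted, but NDUFA5 passed without CON replicate 2 (edgeR adjusted p = 0.0220). NDUFA7 (ENSG00000267855) had the largest p, with 0.175, 0.653 and 0.388 CPM in OGD/R libraries, against 0.520, 0.536 and 0.365 CPM in CON libraries. That is 6 to 20 counts per OGD/R library and 12 to 18 counts per CON library, and the groups overlapped (−0.24 ± 0.54 SE, edgeR adjusted p = 0.826).

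In the proximal part of the membrane arm, 3 of 9 accessory subunits (33.3%) rose and 6 did not pass, with a median log2 fold change of 0.19. The share that rose was 10.2% over all genes, and 34.1% in the shortest length class by the longest transcript. With the longest-transcript and principal-transcript corrections 1 (11.1%) and 2 (22.2%) rose, where 10.3% and 10.5% of all genes rose. NDUFS5 (ENSG00000168653), a twin-cysteine protein on the intermembrane-space side, had the smallest p of all subunits. Its levels were 89.5, 95.3 and 91.6 CPM in OGD/R libraries, against 63.4, 71.0 and 63.8 CPM in CON libraries. Every OGD/R library was well above every CON library (0.48 ± 0.05 SE, edgeR adjusted p = 1.62e-09). At 548 bases it is also among the shortest, and its log2 fold change was 0.26 with either correction (edgeR adjusted p = 3.96e-05 on the longest transcript). NDUFA1 (ENSG00000125356), a small single-pass membrane subunit, had 31.8, 34.8 and 34.5 CPM in OGD/R libraries, against 24.2, 28.6 and 26.1 CPM in CON libraries. The groups did not overlap (0.36 ± 0.08 SE, edgeR adjusted p = 0.000429), and the adjusted p was 0.0573 with the longest-transcript correction and 0.0497 with the principal-transcript one.

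NDUFC1 rose by 0.24 ± 0.08 SE on the log2 scale, and this call was lost under both corrections and without any 1 library other than CON replicate 3 (edgeR adjusted p = 0.0508 to 0.158), and with total-count scaling. NDUFA8, another twin-cysteine subunit, had 38.3, 40.6 and 40.7 CPM in OGD/R libraries, against 32.7, 36.4 and 35.98 CPM in CON libraries. Its groups did not overlap, but its adjusted p was just above the threshold (0.19 ± 0.07 SE, edgeR adjusted p = 0.0505), and below it without OGD/R replicate 1 or CON replicate 2 (0.0363 to 0.0464). NDUFA8 also passed with RLE (adjusted p = 0.0487) or upper-quartile scaling (0.0403), DESeq2 (0.0432) and the 1 CPM filter (0.0435). NDUFC2 (0.19 ± 0.14 SE), NDUFA3 (0.08 ± 0.08 SE), NDUFA11 (−0.18 ± 0.18 SE) and NDUFA13, also known as GRIM-19 (−0.19 ± 0.32 SE), did not pass. NDUFA10 (ENSG00000130414), a protein of the nucleoside kinase family, had the largest p. It had 85.7, 80.1 and 82.8 CPM in OGD/R libraries, against 76.4, 82.9 and 84.6 CPM in CON libraries, and the groups overlapped (0.03 ± 0.05 SE, edgeR adjusted p = 0.780).

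In the distal part of the membrane arm all 11 subunits had positive fold changes as counted, 6 rose and 5 did not pass, with a median log2 fold change of 0.23. The share that rose was 10.2% over all genes, and 34.1% in the shortest length class by the longest transcript. With the longest-transcript and principal-transcript corrections 3 and 2 of the 11 rose, where 10.3% and 10.5% of all genes rose. NDUFB6 (ENSG00000165264), an accessory membrane subunit, had 31.2, 32.6 and 29.04 CPM in OGD/R libraries, against 25.0, 23.2 and 23.9 CPM in CON libraries. The groups stood clearly apart (0.37 ± 0.08 SE, edgeR adjusted p = 0.000403). NDUFB4 (ENSG00000065518), also an accessory membrane subunit, had 38.2, 44.3 and 48.8 CPM in OGD/R libraries, against 32.2, 36.9 and 33.6 CPM in CON libraries. OGD/R replicate 1 lay only just above the highest CON library (0.35 ± 0.08 SE, edgeR adjusted p = 0.000403). NDUFB1 (ENSG00000183648), a very small subunit, had the largest p, with 16.2, 15.8 and 17.6 CPM in OGD/R libraries, against 15.6, 15.6 and 14.0 CPM in CON libraries. The groups did not overlap, yet the test was not passed (0.14 ± 0.10 SE, edgeR adjusted p = 0.385), and the log2 fold change was −0.05 and −0.10 with the corrections.

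NDUFB10, a twin-cysteine subunit, rose by 0.26 ± 0.06 SE, NDUFB11 by 0.23 ± 0.06 SE, NDUFB9 by 0.23 ± 0.06 SE and NDUFB3 by 0.35 ± 0.11 SE on the log2 scale. The call of NDUFB10 and that of NDUFB3 were lost under both corrections. NDUFB3 also lost it without OGD/R replicate 2 or 3 or without CON replicate 3 (edgeR adjusted p = 0.0932 to 0.225). NDUFB11 was 126 ± 2.70 CPM in OGD/R libraries and 108 ± 12.7 CPM in CON libraries (SD, n = 3 each), and its exons overlap those of RBM10, an RNA-binding protein gene on the opposite strand. RBM10 was itself 115 CPM in OGD/R libraries and 100.4 CPM in CON libraries (0.20 ± 0.05 SE, edgeR adjusted p = 0.00138). The kit does not mark strand, so reads of the shared bases, 45.8% of the principal transcript of NDUFB11, cannot be told apart. NDUFB8 (0.27 ± 0.19 SE), NDUFB7 (0.21 ± 0.10 SE), NDUFB2 (0.15 ± 0.08 SE) and NDUFB5 (0.13 ± 0.09 SE) did not pass.

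The mitochondrial acyl carrier protein NDUFAB1 (ENSG00000004779), which serves fatty acid synthesis and sits in the complex on LYR-motif subunits, rose as counted. It had 44.3, 51.0 and 46.1 CPM in OGD/R libraries, against 37.2, 39.8 and 35.5 CPM in CON libraries. The groups did not overlap (0.33 ± 0.07 SE, edgeR adjusted p = 0.000268). Its adjusted p was 0.112 and 0.0767 with the 2 corrections. Its docking partners NDUFA6 and NDUFB9 also rose as counted, and with the principal-transcript correction NDUFA6 passed and NDUFB9 did not.

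**Figure D4:**
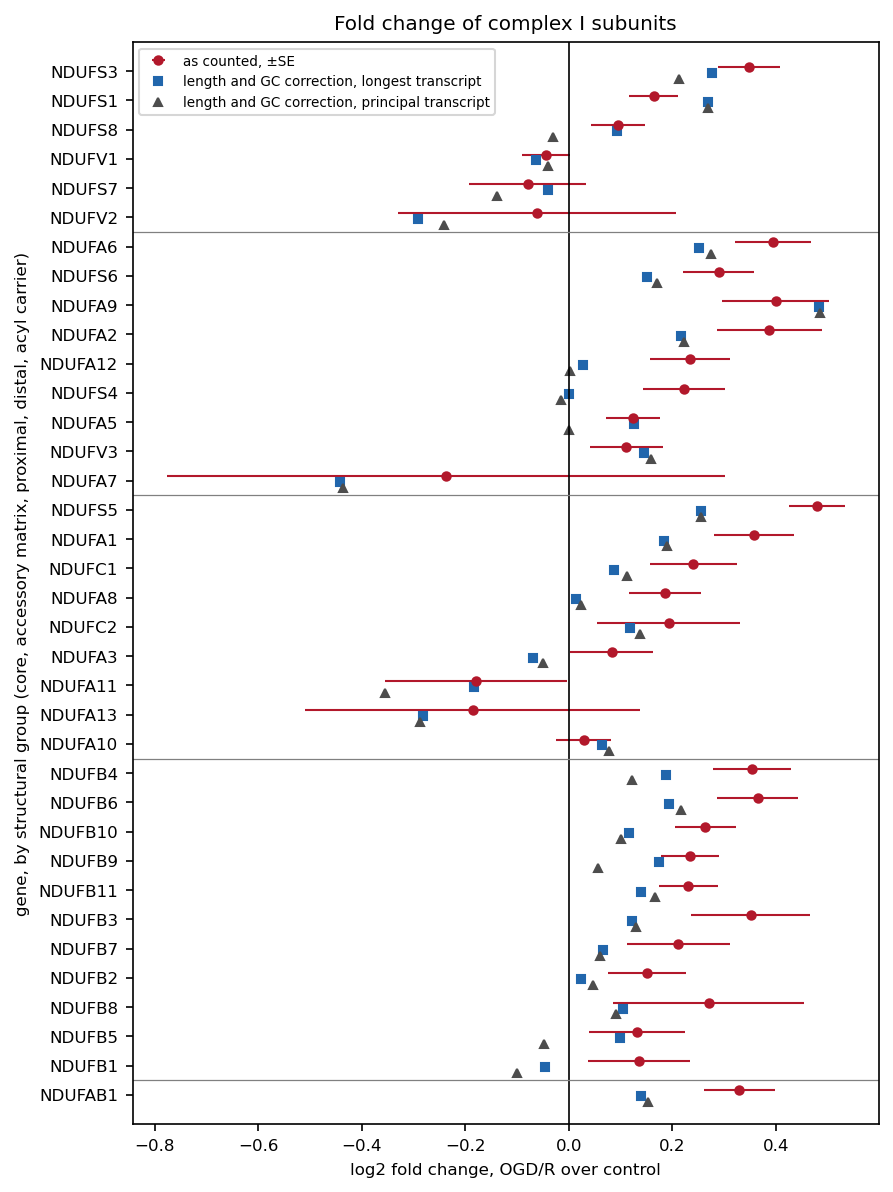
Log2 fold change of each subunit, OGD/R over CON, by structural group, as counted with its SE (red) and with the length and GC correction on the longest (blue squares) or principal (grey triangles) transcript. As counted, the values run from −0.24 to 0.48, and the corrected values of most short subunits lie closer to 0, while those of NDUFS1 and NDUFA9 lie further from it.

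Transcript levels per kilobase of principal transcript differed widely within the complex. They were highest for NDUFS5, at 168 CPM per kilobase in OGD/R libraries and 121 in CON libraries, and lowest for NDUFA7, at 0.674 in OGD/R libraries and 0.788 in CON libraries. The 6 subunits with a mean under 10 CPM were NDUFA7, NDUFA13, NDUFV2, NDUFB8, NDUFA11 and NDUFC2. None of these 6 rose (0 of 6), their median log2 fold change was −0.12, and of the other 30 subunits 18 rose. Over all genes 10.2% rose. The SEs of these 6 ran from 0.14 (NDUFC2) to 0.54 (NDUFA7), so changes of the size called in other subunits could be missed. NDUFB8 and NDUFC2 had log2 fold changes of 0.27 and 0.19, and the other 4 were negative. In NDUFV2, 82.9% of the principal transcript's bases lie in annotated exons of another gene, and in NDUFA7 this was 78.7%, in NDUFB8 71.7%, in NDUFA11 67.0%, in NDUFA13 44.1% and in NDUFC2 19.0%. Over the 9 subunits with an overlap of 30% or more the median level was 9.89 CPM per kilobase in OGD/R libraries and 11.2 in CON libraries, while over the other 27 it was 34.6 in OGD/R libraries and 28.5 in CON libraries. This limit was set after seeing the data. NDUFB2 (83.4%), NDUFB11 (45.8%) and NDUFA1 (44.5%) overlap as much and were not low. Whether reads were lost to the overlap was not tested. Of the 20 subunits with under 10% overlap, 12 rose and all 20 fold changes were positive, with a median of 0.24 on the log2 scale. Of the other 16, 6 rose and 6 fold changes were negative, with a median of 0.16. With the 2 corrections 4 and 5 of the 20 rose, and 4 and 4 of the 16. The copies NDUFV2P1 and NDUFA5P11, named as pseudogenes of subunits, had 1.59 and 1.10 CPM in OGD/R libraries, against 1.23 and 1.24 CPM in CON libraries, so the value of NDUFV2 in particular is uncertain.

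**Figure D5:**
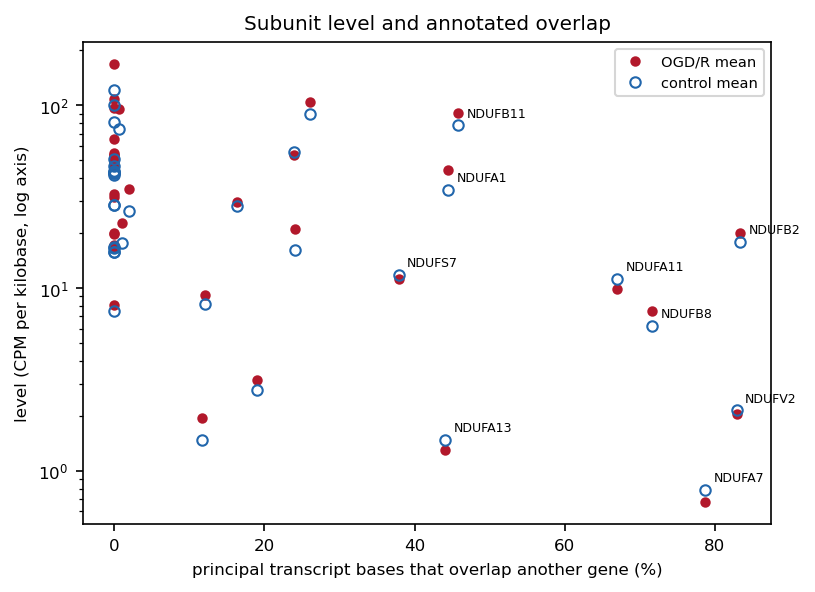
Mean level of each subunit in OGD/R libraries (filled red) and CON libraries (open blue), in CPM per kilobase of principal transcript on a log axis, against the share of that transcript's bases that lie in exons of another annotated gene. Of the 9 labelled subunits with an overlap of 30% or more, 3 lie under 3 CPM per kilobase in both groups. So does NDUFA9, with an overlap of 11.8% (1.95 in OGD/R libraries and 1.48 in CON libraries).

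The 7 mitochondrially encoded subunits, which form the membrane core, did not move as a block. MT-ND3 rose by 0.26 ± 0.05 SE (edgeR adjusted p = 0.00111) and MT-ND4 by 0.12 ± 0.04 SE (edgeR adjusted p = 0.0291) on the log2 scale, 0 fell and 5 did not pass. Among all genes, 10.2% rose and 9.48% fell. At an unadjusted p under 0.05, 2 were lower, and DESeq2 and limma-voom each called 1 lower. With total-count scaling 1 was higher (MT-ND3) and 2 were lower (MT-ND1 and MT-ND5). MT-ND3 had 331, 385 and 407 CPM in OGD/R libraries, against 315, 321 and 304 CPM in CON libraries, and the groups did not overlap. MT-ND4 had 7265, 7751 and 7601 CPM in OGD/R libraries, against 7073, 6836 and 6940 CPM in CON libraries. Its groups did not overlap either. MT-ND1 had 2778, 2755 and 2677 CPM in OGD/R libraries, against 3008, 2935 and 2849 CPM in CON libraries (−0.10 ± 0.04 SE). Here every OGD/R library was below every CON library, yet the test was not passed. MT-ND5 had 1790.4, 1868 and 1884 CPM in OGD/R libraries, against 2049, 1862 and 1969 CPM in CON libraries (−0.09 ± 0.04 SE). MT-ND2 had 2735, 2878 and 2815 CPM in OGD/R libraries, against 2696, 2774 and 2721 CPM in CON libraries (0.04 ± 0.04 SE). Both overlapped between the groups. MT-ND6 had 511, 465 and 513 CPM in OGD/R libraries, against 502, 485 and 473 CPM in CON libraries (0.03 ± 0.04 SE). MT-ND4L had 616, 725 and 722 CPM in OGD/R libraries, against 717, 672 and 683 CPM in CON libraries (−0.01 ± 0.05 SE). These 2 overlapped as well. The call of MT-ND4 was lost without OGD/R replicate 2 or 3 or without CON replicate 3 (edgeR adjusted p = 0.0987 to 0.207), and MT-ND5 fell without CON replicate 2 (edgeR adjusted p = 0.0217). With either length and GC correction 0 rose and 4 fell (MT-ND1, MT-ND2, MT-ND4L and MT-ND5). With the longest-transcript and principal-transcript corrections 8.92% and 8.47% of all genes fell. MT-ND2 had log2 fold changes of −0.16 and −0.14 there (edgeR adjusted p = 7.50e-05 and 0.000334). The values of MT-ND3, MT-ND4 and MT-ND6 turned negative as well and did not pass. These transcripts are cut from long polycistronic precursors, MT-ND6 from that of the opposite strand, and their directions depended on the scaling and the correction.

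The assembly factors build the complex but are not part of it. Of 18, 4 (22.2%) rose, 0 fell and 14 did not pass, with a median log2 fold change of 0.07. The share of all genes that rose was 10.2%. Without OGD/R replicate 2 the number that rose was 2. With the 2 corrections it was 2 (11.1%) and 3 (16.7%), where 10.3% and 10.5% of all genes rose. TIMMDC1 was lower under the longest-transcript correction (edgeR adjusted p = 0.0355). At an unadjusted p under 0.05, 0 were lower, and DESeq2 and limma-voom each called 0 lower. NDUFAF3, which acts early in the assembly of the quinone module, had 31.4, 30.8 and 31.4 CPM in OGD/R libraries, against 22.5, 20.1 and 23.4 CPM in CON libraries (0.50 ± 0.08 SE, edgeR adjusted p = 3.20e-06). NDUFAF8, a twin-cysteine assembly factor, had 23.6, 26.0 and 24.8 CPM in OGD/R libraries, against 16.3, 19.6 and 18.4 CPM in CON libraries (0.45 ± 0.09 SE, edgeR adjusted p = 0.000117). In both genes the groups stood apart, and both also rose under each of the 18 alternatives.

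Rises were also seen in the rest of the chain. Of 39 nuclear-encoded subunits of complexes II to V, 30 (76.9%) rose, 0 fell and 9 did not pass, with a median log2 fold change of 0.26. As counted, 10.2% of all genes rose. With the 2 corrections 18 (46.2%) and 13 (33.3%) rose, with medians of 0.14 and 0.13, where 10.3% and 10.5% of all genes rose. At an unadjusted p under 0.05, 0 were lower, and DESeq2 called 28 higher and 0 lower. COX6B1, a subunit of cytochrome c oxidase, had 93.1, 108 and 111 CPM in OGD/R libraries, against 76.2, 80.3 and 77.4 CPM in CON libraries (0.41 ± 0.05 SE, edgeR adjusted p = 7.87e-08). ATP5MC3, which encodes the rotor ring of ATP synthase, had 139, 145 and 138 CPM in OGD/R libraries, against 99.5, 117 and 111 CPM in CON libraries (0.37 ± 0.05 SE, edgeR adjusted p = 1.29e-07). Neither gene's groups overlapped. The difference between complex I and the other complexes was not tested.

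Of 14 genes listed as regulators of respiratory chain or mitochondrial DNA transcription with a value, 0 rose, 3 fell and 11 did not pass. Among all genes, 10.2% rose and 9.48% fell. With either correction the same 3 fell and HCFC1, a host cell factor that works with GABP, was higher. At an unadjusted p under 0.05, 0 were higher as counted, and DESeq2 and limma-voom each called 0 higher. NFE2L1, a stress-responsive transcription factor of the endoplasmic reticulum, is a different gene from NRF1. Its part in respiratory chain transcription was not tested here. NFE2L1 had 234, 229 and 231 CPM in OGD/R libraries, against 294, 309 and 312 CPM in CON libraries (−0.40 ± 0.04 SE, edgeR adjusted p = 1.36e-10). PPARGC1B, a coactivator of mitochondrial biogenesis, had 15.3, 17.2 and 16.2 CPM in OGD/R libraries, against 21.6, 21.9 and 25.7 CPM in CON libraries (−0.51 ± 0.09 SE, edgeR adjusted p = 3.95e-05). The third that fell was PPRC1, a related coactivator (−0.23 ± 0.05 SE). NRF1 (0.08 ± 0.09 SE), GABPA (0.03 ± 0.07 SE), YY1 (−0.01 ± 0.04 SE) and ESRRA (−0.02 ± 0.06 SE), whose letters were searched in the promoters, did not pass.

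Among genes that supply the complex, 1 of 4 import genes (25%) rose, where 10.2% of all genes rose. The count was 2 without OGD/R replicate 1 or CON replicate 3. The 1 that rose was AIFM1, which works with CHCHD4 in the import of twin-cysteine proteins. It had 93.5, 89.1 and 91.1 CPM in OGD/R libraries, against 72.1, 83.7 and 78.0 CPM in CON libraries (0.23 ± 0.05 SE, edgeR adjusted p = 0.00136). CHCHD4, the receptor itself, had a log2 fold change of 0.03 ± 0.10 SE. COX17 (0.30 ± 0.12 SE, edgeR adjusted p = 0.0801) and GFER (−0.24 ± 0.11 SE, edgeR adjusted p = 0.115) did not pass either. For GFER every OGD/R library was below every CON library (edgeR unadjusted p = 0.0302). Of 14 iron-sulfur cluster assembly genes with a value, 4 (28.6%) rose, 0 fell and 10 did not pass, where 10.2% of all genes rose. With either correction 3 rose. At an unadjusted p under 0.05, 1 was lower (IBA57), and DESeq2 and limma-voom each called 0 lower. The count that rose was 2 without OGD/R replicate 2 or 3. BOLA3, a late-acting factor of cluster transfer, had 12.0, 10.3 and 11.8 CPM in OGD/R libraries, against 6.18, 8.82 and 6.47 CPM in CON libraries (0.67 ± 0.13 SE, edgeR adjusted p = 0.000165). FDXR, ferredoxin reductase, had 50.5, 55.1 and 46.5 CPM in OGD/R libraries, against 37.0, 45.7 and 41.5 CPM in CON libraries (0.29 ± 0.07 SE, edgeR adjusted p = 0.00196). BOLA3 stood apart between the groups, while the lowest OGD/R library of FDXR was just above its highest CON library. Without OGD/R replicate 2 the adjusted p of FDXR was 0.0502.

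Of 5 genes with a value that were listed as oxygen-responsive, 2 rose, 2 fell and 1 did not pass. The last was PDK1 (0.04 ± 0.07 SE, edgeR adjusted p = 0.791). Not all of the 5 encode parts of the respiratory chain. Among all genes, 10.2% rose and 9.48% fell. NDUFA4L2, a hypoxia-induced gene related to a subunit of cytochrome c oxidase and not itself a complex I subunit here, had 1.40, 0.719 and 0.775 CPM in OGD/R libraries, against 2.79, 2.77 and 2.55 CPM in CON libraries (−1.48 ± 0.29 SE, edgeR adjusted p = 0.000102). HIGD1A, a hypoxia-inducible inner membrane protein, had 68.2, 72.9 and 75.6 CPM in OGD/R libraries, against 59.8, 57.4 and 52.9 CPM in CON libraries (0.35 ± 0.06 SE, edgeR adjusted p = 8.62e-06). BNIP3, a mitophagy receptor, had 68.1, 67.5 and 70.0 CPM in OGD/R libraries, against 57.8, 61.6 and 56.0 CPM in CON libraries (0.23 ± 0.06 SE, edgeR adjusted p = 0.00215). LONP1, the mitochondrial matrix protease, had 92.6, 86.2 and 86.7 CPM in OGD/R libraries, against 95.5, 99.6 and 99.7 CPM in CON libraries (−0.15 ± 0.05 SE, edgeR adjusted p = 0.0251). In these 4 the groups did not overlap, and the hypoxia-inducible genes included rises and a fall. The fall, that of NDUFA4L2, was in a gene of low level. The call of LONP1 was lost under both corrections, and without OGD/R replicate 2 or 3 or CON replicate 2 or 3 (edgeR adjusted p = 0.0669 to 0.131).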

How the data were processed

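The authors deposited raw read counts per Ensembl gene for each library. The submitters' processing notes list HISAT2, featureCounts, Trimmomatic, SAMtools and edgeR, and as build GRCm38, which is of mouse although the gene IDs are human, so the build of the counts is uncertain. Settings, and whether counting used strand, are not given in the sources used here. Per the labels' protocols, libraries came from total RNA with a NEBNext Ultra kit.

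Counts were scaled by TMM and tested with edgeR 4.0.16 (R 4.3.3), robust quasi-likelihood, two-sided, without a replicate block, on all 17104 genes, with p-values adjusted by Benjamini-Hochberg (threshold 0.05). No gene was lost (0) to filterByExpr at a minimum count of 10. Levels are TMM-scaled CPM. Lengths, GC content and exon overlaps come from GENCODE 29, with a length for 96.6% of genes, and promoters from RefSeq (GRCh38.p14). Trends (mgcv 1.9.3) were fitted per library on 10859 protein-coding genes with an average log2 CPM above 2. Scripts were tested on simulated data. Alternatives were DESeq2 1.42.0, limma-voom (limma 3.58.1), scaling by RLE, upper quartile or total count, no filter, a minimum of 1 CPM in 3 libraries, omission of mitochondrially encoded genes, a replicate block, the length and GC correction with and without it, and leaving out each library. The principal-transcript correction was added after seeing the data.

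Members and lists were chosen with earlier results of these data known. Full values are given, in each of 4 structural groups, for the 2 members of smallest p and the one of largest p, for NDUFAB1, for all mitochondrially encoded subunits, and for the 2 called genes of smallest p per direction in each other list. Genes without a row (PPARGC1A, FDX2, COX4I2) were not analysed here.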

Additional observations from a re-analysis of the deposited data

How the results depend on the processing

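The number of subunits that rose was 18 as counted, 8 with the length and GC correction on the longest transcript, 10 with that correction and the replicate block, and 9 with it on the principal transcript. The median log2 fold change was 0.22 as counted, and 0.1101, 0.1067 and 0.0837 under these 3, which by construction lower the values of short genes. The count was 16 with total-count scaling, and 18 or 19 with RLE, upper-quartile, DESeq2, limma-voom, no filter (the same genes), the 1 CPM filter, without mitochondrially encoded genes and with the block. Without a library it was 14 to 19, lowest without OGD/R replicate 2 or 3, with medians of 0.1833 to 0.2401. The count of subunits that fell was 0 under each of the 18 alternatives run. No pairing by replicate number was seen: deviations of same-numbered libraries correlated at −0.013, 0.077 and −0.047, and libraries did not all correlate best with their own number. With 3 libraries per group this cannot show whether same-numbered libraries were made together. With the number as a block 19 rose, NDUFA8 among them (adjusted p = 0.0473).

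Of 647 values of the 36 nuclear-encoded subunits under alternatives, 573 kept direction and call, 46 lost the call and 9 gained it. A change of sign was seen in 20, none of these past the threshold (NDUFS4 on the principal transcript lost its call and changed sign). On the longest transcript NDUFA3 was −0.0685 and NDUFB1 −0.0463, and with the block −0.0698 and −0.0473. On the principal transcript NDUFS8 was −0.0302, NDUFS4 −0.0158, NDUFA5 −0.0002, NDUFA3 −0.0496, NDUFB5 −0.0482 and NDUFB1 −0.1002. NDUFA10 was −0.0017 with total-count scaling. With a library left out, values ran from −0.08 to 0.0006 for NDUFV1, −0.2494 to 0.0916 for NDUFV2, −0.7475 to 0.1277 for NDUFA7, −0.3686 to 0.0301 for NDUFA11, −0.5174 to 0.0594 for NDUFA13, −0.0117 to 0.0599 for NDUFA10 and −0.0463 to 0.0669 for MT-ND4L. On the longest transcript MT-ND2 was −0.1601, MT-ND3 −0.0579, MT-ND4 −0.0423 and MT-ND6 −0.235, with the block −0.1599, −0.0572, −0.0415 and −0.2379, and on the principal transcript −0.1428, −0.0676, −0.0184 and −0.2395. Some of these mitochondrial sign changes passed the threshold. MT-ND2 did so in each of these settings (edgeR adjusted p = 7.50e-05, 9.28e-06 and 0.000334), and MT-ND6 with the block (8.07e-10). MT-ND4L was 0.0005 with upper-quartile scaling and MT-ND6 −0.0027 with total-count scaling. Beyond the construction of the corrections, the cause was not tested. Depth limits NDUFA7, NDUFA13 and NDUFV2, each with 76 or fewer counts per library.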
